A study of Homo sapiens with 14 samples.

Results

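BRD2, BRD3 and MYC were followed across 14 RNA-seq libraries of K562, a human erythroleukaemia line derived from a patient with chronic myeloid leukaemia. The 3 genes were taken by name, as the bromodomain and extra-terminal (BET) genes BRD2 and BRD3 together with MYC, from a read count table of 24729 genes. All 3 were among the 14406 genes with enough reads to be tested.

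The study asked how expression across the genome responds when a catalytically dead Cas9 (dCas9), which binds DNA without cutting it, is directed to regulatory elements of the β-globin cluster. Unmodified K562 cells (WT, n = 2) carried no dCas9. The other 4 groups (n = 3 each) stably expressed Flag- and biotin-tagged dCas9 and BirA, the ligase that attaches biotin to the tag, and differed in the guide RNA: sgGal4, a guide with no target; sgHS2, directed to the HS2 enhancer; sgHBG, directed to the fetal globin promoters; and sgHS1-5, directed to several elements of the locus control region. All cells grew in the same serum-supplemented medium, and total RNA was sequenced. Each group is its own stable cell population, so a guide's effect and any other difference among these populations cannot be told apart. Nothing in the labels states that replicates came from separate cultures. The p-values therefore reflect only how far libraries spread within their groups, which may be technical. This spread was estimated for each gene over all groups together, so a p-value also carries the spread of groups outside its comparison.

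BET proteins read acetylated lysines on histone tails through paired bromodomains and bring the kinase P-TEFb to promoters and enhancers, where it releases paused RNA polymerase II. BRD3 is also known for binding acetylated GATA1, the central erythroid transcription factor. MYC, paired with MAX, binds E-box DNA and raises genes of ribosome assembly, nucleotide synthesis and glycolysis; in leukaemia lines its transcription is a well-known target of BET inhibitors.

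Libraries held 5694448 to 11335831 counts, and the 3 sgHS1-5 libraries were the shallowest. A total of 4 libraries stood apart within their groups. Differences between replicates reached 93.9 times counting noise (chi-square per degree of freedom) for sgGal4 replicate 1, which also had short transcripts high and long transcripts low, and 17.3 times for sgHS2 replicate 2, against 1.25 to 1.76 among the remaining WT, sgGal4, sgHS2 and sgHBG libraries. The sgHS1-5 replicates 2 and 3 carried transcripts nearly absent from all other groups. MPO, a neutrophil granule enzyme, had 120, 10362 and 1955 counts in sgHS1-5 replicates 1, 2 and 3 against 0 to 3 elsewhere, and the B cell genes MS4A1 and CD79A followed the same order there. Over 15 markers of other cell types the summed level was 741, 2456 and 1014 CPM (counts scaled to library size) in the sgHS1-5 replicates. The other libraries had 499 to 973. KRT8 alone had 368 to 653 CPM across all libraries, and LYZ and EPCAM were also present in each. The sum is therefore no measure of the amount of other cells. CD8A was at 0 in all libraries but sgHS1-5 replicate 2. The 12 erythroid identity genes, GATA1 and HBG2 among them, summed to between 1440.1 and 2416 CPM in every library. TFRC, 1 of the 12, alone had a mean of 467 CPM in WT and 997 to 1265 in the dCas9 groups. The median log2 difference of the 12 genes from WT was -0.34 in sgGal4, -0.20 in sgHS2, -0.51 in sgHBG and 0.17 in sgHS1-5. The sum therefore does not describe the list as a whole.

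On a scale per transcript length (RPKM, which divides reads by transcript length and by library depth), MYC was the highest of the 3, with a mean of 98.2 over the 14 libraries (range 65.7 to 215). BRD2 followed at 77.1 (59.0 to 85.6). BRD3 was the lowest, at 8.46 (6.53 to 10.0). BRDT, a BET gene normally expressed in testis, had 4 reads in all libraries together and was not tested. Between the highest and the lowest library, MYC spanned 3.73-fold in CPM, BRD2 1.62-fold and BRD3 1.59-fold.

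**Figure D1:**
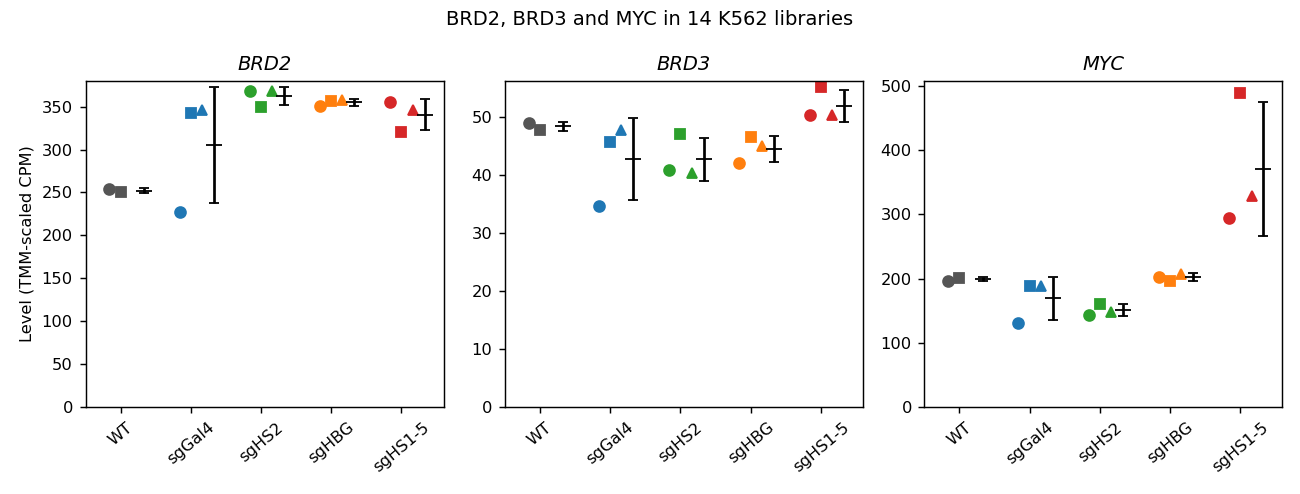
Levels of BRD2, BRD3 and MYC in each of the 14 libraries, in CPM scaled by TMM (trimmed mean of M values); circles, squares and triangles are replicates 1, 2 and 3, and the bar gives the group mean ± SD. The WT libraries are low for BRD2, and the 3 sgHS1-5 libraries, at 294 to 489.5 for MYC, lie above the other 11.

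Differences between groups were fitted with edgeR's quasi-likelihood test over all 14 libraries and called at a Benjamini-Hochberg adjusted p under 0.05 over all tested genes. Among the sgGal4 comparisons, none of the 3 genes was called in sgHS2 (30.1% of tested genes were called) or in sgHBG (24.7%), and 1, MYC, was called in sgHS1-5 (40.4%). Against WT, none was called in sgGal4 (42.4%), 1, BRD2, in sgHS2 (33.1%) and in sgHBG (33.6%), and 2, BRD2 and MYC, in sgHS1-5 (42.9%). Between targeting guides, none was called for sgHS2 against sgHBG (8.91%), and MYC alone was called for sgHS1-5 against sgHBG (25.2%) and against sgHS2 (38.9%). At an unadjusted p under 0.05, MYC also passed for sgHS2 against sgHBG and BRD3 for sgHS1-5 against sgGal4 and against sgHS2. Comparisons that share a group share its libraries and are not independent of each other.

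**Figure D2:**
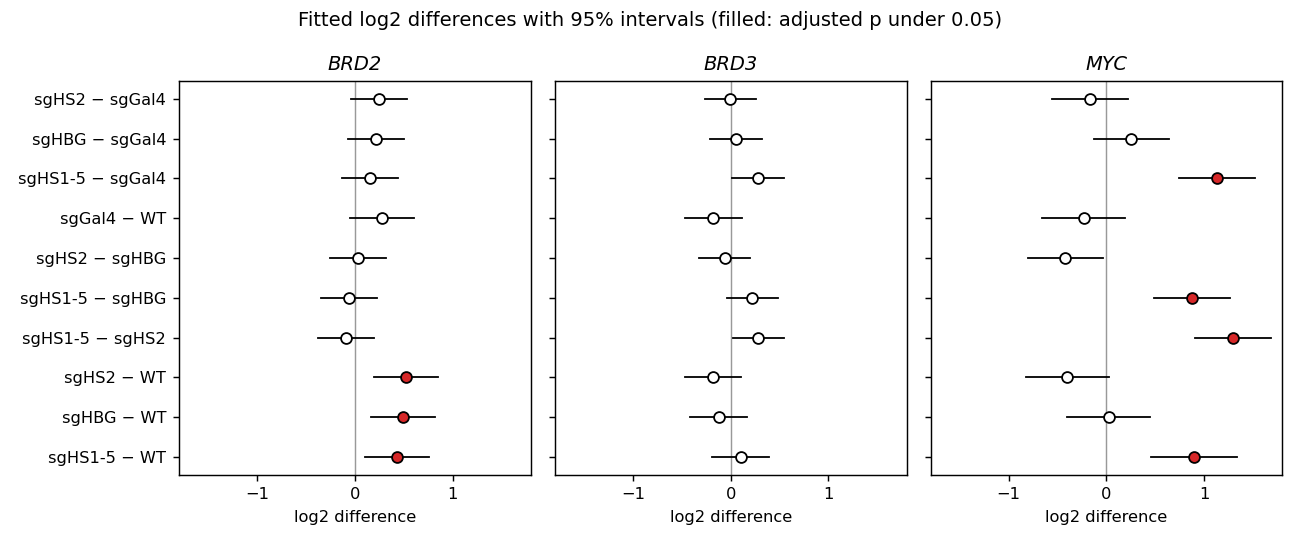
Fitted log2 differences (points) with 95% intervals (lines) for the 3 genes in the 10 comparisons; filled points have an adjusted p under 0.05. MYC is filled in the 4 comparisons of sgHS1-5, BRD2 in 3 comparisons with WT, and BRD3 in none.

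MYC was highest in cells with the sgHS1-5 guides. Its level there was 294, 489.5 and 329 CPM in replicates 1, 2 and 3. WT cells had 197 and 202 CPM, sgHBG cells 203, 196 and 208, sgGal4 cells 131, 189 and 188, and sgHS2 cells 144, 161 and 148. The lowest sgHS1-5 library stood 1.42 times above the highest of the 11 others, so sgHS1-5 overlapped no group, while WT, sgGal4 and sgHBG lay close together and sgGal4 replicate 1 was the lowest library of all. The share of all tested genes whose groups lie apart in this way was not counted, here or for the genes below. Such separation also occurred for BRD3, which was called in no comparison.

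Against sgGal4 (169 ± 33.1 CPM, SD, n = 3), MYC in sgHS1-5 (371 ± 104, n = 3) was 2.19-fold higher, a log2 difference of 1.13 ± 0.18 (SE; 95% interval 0.74 to 1.52; edgeR adjusted p = 0.000434). It was 2.46-fold higher than in sgHS2 (151 ± 8.92, n = 3; log2 1.30 ± 0.18, edgeR adjusted p = 0.000152). The excess was 1.84-fold over sgHBG (202 ± 5.98, n = 3; log2 0.88 ± 0.18, edgeR adjusted p = 0.00367) and 1.86-fold over WT (199 ± 3.36, n = 2; log2 0.90 ± 0.20, edgeR adjusted p = 0.00336). MYC was called in these 4 comparisons with any 1 library of the compared groups left out.

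Within sgHS1-5, MYC and the blood cell genes MPO, MS4A1, CD79A and LYZ were lowest in replicate 1 and highest in replicate 2. The epithelial genes KRT8 (545, 370 and 486 CPM in replicates 1, 2 and 3) and EPCAM (63.0, 41.2 and 57.7) ran the opposite way. Replicate 2 had 1.67 times the MYC level of replicate 1, and 72.8 times its MPO level. Replicate 1 also held such transcripts, with MPO at 19.4 CPM (120 counts, against 0 to 3 in the other groups). MYC in replicate 1 was at 294 CPM, above all 11 libraries of the other groups. With replicates 2 and 3 left out, the single remaining library, assumed to vary as the other groups do, kept the call against sgGal4 (log2 0.64) and sgHS2 (0.96), but not against sgHBG (0.54, edgeR adjusted p = 0.0941) or WT (0.56, edgeR adjusted p = 0.0558). Of 14 tested markers of other cell types, 8 were called higher and 2 lower in sgHS1-5 than in sgGal4 (20.3% and 20.2% of all tested genes), 9 and 0 against sgHBG (12.4% and 12.8%) and against sgHS2 (20.4% and 18.5%), and 8 and 0 against WT (23.4% and 19.5%). The part of the other cell types' transcripts in the MYC level of replicates 2 and 3 was not tested. In bulk RNA, more cells of a type and more RNA per cell cannot be told apart.

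**Figure D3:**
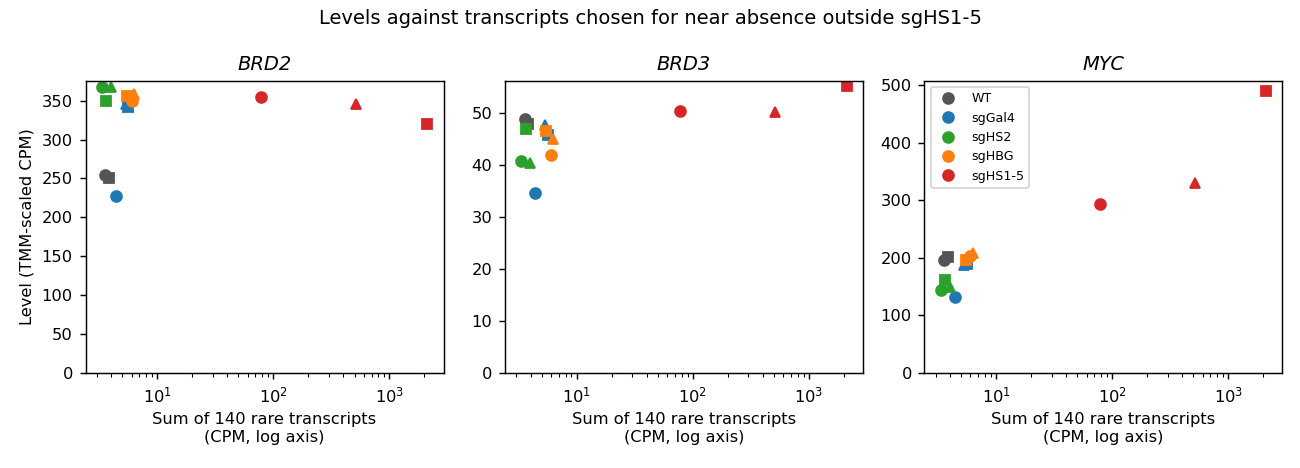
Levels of BRD2, BRD3 and MYC (TMM-scaled CPM) against the summed CPM of 140 transcripts chosen for being nearly absent outside sgHS1-5 (log axis); colours mark the groups and shapes the replicates. The choice of transcripts sets the gap between sgHS1-5 and the rest, while within sgHS1-5 MYC is lowest in replicate 1 (sum 78.1) and highest in replicate 2 (sum 2117).

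Below sgHS1-5 the order of MYC means was sgHBG, WT, sgGal4 and sgHS2. The neighbours in that order did not pass the test. sgHBG and WT differed by log2 0.02 ± 0.20 (95% interval -0.41 to 0.45), sgGal4 and WT by -0.23 ± 0.20 (edgeR adjusted p = 0.370), and sgHS2 and sgGal4 by -0.17 ± 0.18 (edgeR adjusted p = 0.509). The 3 sgHS2 libraries (144 to 161 CPM) lay below the 3 sgHBG libraries (196 to 208). The difference was -0.42 ± 0.18 (95% interval -0.81 to -0.04), which missed the threshold (edgeR adjusted p = 0.176). Without sgGal4 replicate 1 and sgHS2 replicate 2, the sgHS2 level was called against sgHBG (-0.48, edgeR adjusted p = 0.0499) and against WT (-0.47, edgeR adjusted p = 0.0430).

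BRD2 was lower in unmodified cells than in cells with dCas9 and a targeting guide. WT had 254 and 250 CPM. The level was 368, 350.0 and 368 in sgHS2, 350.2, 356 and 358 in sgHBG, and 355, 320.4 and 346 in sgHS1-5. The sgGal4 libraries had 227, 342 and 346. Replicate 1 of sgGal4 fell below WT, the other two sgGal4 libraries lay beside the targeting groups, and no targeting library overlapped WT.

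Relative to WT (252 ± 2.72 CPM, n = 2), BRD2 was 1.44-fold higher in sgHS2 (362 ± 10.4, n = 3; log2 0.52 ± 0.15, edgeR adjusted p = 0.0177). It was 1.41-fold higher in sgHBG (355 ± 4.13, n = 3; log2 0.49 ± 0.15, edgeR adjusted p = 0.0232) and 1.35-fold higher in sgHS1-5 (340.4 ± 17.9, n = 3; log2 0.43 ± 0.15, edgeR adjusted p = 0.0343). The 3 values kept their size with single libraries left out, at log2 0.40 to 0.55, but the adjusted p rose above the threshold in many of these smaller fits. Without WT replicate 1 it was 0.102, 0.118 and 0.141 for sgHS2, sgHBG and sgHS1-5, and without WT replicate 2 it was 0.115, 0.136 and 0.161. The call of sgHBG was also lost without its replicate 1, 2 or 3 (edgeR adjusted p = 0.0567, 0.0561 and 0.0583), and that of sgHS1-5 without its replicate 1 or 3 (0.0784 and 0.0735). All of these single-library fits still held sgGal4 replicate 1, which enters the shared estimate of spread. Of 18 alternative settings run, these fits among them, the call was kept in 16 for sgHS2, 12 for sgHBG and 11 for sgHS1-5.

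The sgGal4 mean for BRD2 (305 ± 67.5 CPM, n = 3) had the widest spread of the 5 groups. Against WT the log2 difference was 0.28 ± 0.15 (95% interval -0.05 to 0.60), not past the threshold (edgeR adjusted p = 0.159). Without sgGal4 replicate 1 it was 0.45 (edgeR adjusted p = 0.000138), close to the values of the targeting groups. The targeting groups differed from sgGal4 by 0.25 ± 0.13 in sgHS2, 0.22 ± 0.13 in sgHBG and 0.16 ± 0.13 in sgHS1-5 (edgeR adjusted p = 0.185, 0.248 and 0.367). These differences were 0.07, 0.04 and -0.02 without sgGal4 replicate 1. Among the targeting groups no difference exceeded 0.09 in size (smallest edgeR adjusted p = 0.626).

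BRD3 varied least between group means, from 42.7 to 51.9 CPM. It stood at 50.4, 55.2 and 50.3 CPM in sgHS1-5 and at 49.0 and 47.8 in WT. sgHBG had 42.0, 46.5 and 45.0, sgHS2 had 40.8, 47.0 and 40.3, and sgGal4 had 34.6, 45.8 and 47.8. All 3 sgHS1-5 libraries were above the other 11, by a narrow margin over WT, and sgGal4 replicate 1 was again the lowest library.

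None of the 10 comparisons called BRD3 by edgeR's adjusted p. The largest differences were those of sgHS1-5 against sgHS2 (log2 0.28 ± 0.12, unadjusted p = 0.0372, edgeR adjusted p = 0.0832) and against sgGal4 (0.28 ± 0.12, unadjusted p = 0.0404, edgeR adjusted p = 0.0855). These 2 were the only comparisons with an unadjusted p under 0.05. DESeq2 called the first (adjusted p = 0.0489), and limma-voom called neither. Against sgHBG the difference was 0.22 ± 0.12 (edgeR adjusted p = 0.207) and against WT 0.10 (edgeR adjusted p = 0.579). Unlike MYC, BRD3 was hardly higher in sgHS1-5 replicate 2 than in replicate 1, by 1.10 times, and BRD2 was 0.903 times its replicate 1 level. BRD3 shares its locus with the non-coding gene LINC00094, which had 121 to 289 reads per library against 244 to 525 for BRD3. The library kit does not mark the strand, so reads where the genes overlap cannot be told apart.

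The balance of BRD2 to BRD3 separated the WT cells. The ratio of their RPKM values within a library was 7.02 and 7.05 in WT. It was 9.51, 9.42 and 9.17 in sgGal4, 10.9, 9.67 and 10.8 in sgHS2, 9.49, 9.71 and 9.44 in sgHBG, and 9.55, 7.64 and 8.70 in sgHS1-5. Each dCas9 library was above both WT libraries. sgGal4 replicate 1, with low CPM for both genes, had a ratio beside those of the other sgGal4 libraries. The lowest dCas9 ratio was that of sgHS1-5 replicate 2, the library with most MPO reads. No test of the ratio was made.

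**Figure D4:**
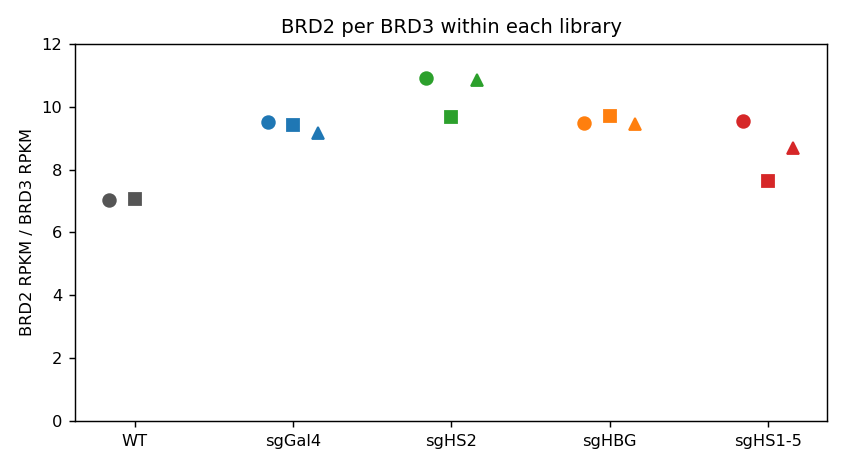
BRD2 RPKM divided by BRD3 RPKM within each library (points), by group. The WT libraries sit at 7.02 and 7.05, and the dCas9 libraries between 7.64 and 10.9.

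Across the 14 libraries BRD3 and MYC had the closest relation of the 3 pairs, with Pearson r = 0.81 and Spearman rho = 0.74. With the 4 libraries that stand apart left out, Pearson r was 0.76 over 10 libraries. The libraries share groups, and the sgHS1-5 group was high for both genes, so r is given as a description. For BRD2 and BRD3 r was 0.21 and rho -0.33, and r was -0.51 over the 10 libraries. For BRD2 and MYC r was 0.15 and rho -0.09, and r was -0.15 over the 10 libraries. Both values of r for BRD2 thus changed sign with the 4 libraries left out.

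Among 13242 genes with a mean of at least 1 CPM, the 5 with the highest Pearson r to MYC over the 14 libraries were POP1 (0.96), TRAF3 (0.96), MARS2 (0.95), TRA2B (0.95) and CSPG4 (0.95), and 60 genes had r above 0.9. For BRD2 they were PIP5K1C (0.97), CMIP (0.97), ITSN1 (0.96), KIAA0196 (0.96) and SSH1 (0.96), with 51 genes above 0.9. BRD3 had looser neighbours in PTBP1 (0.92), GATAD2A (0.90), POLDIP3 (0.90), BRCA2 (0.88) and CABIN1 (0.87), with 1 gene above 0.9. With the 4 libraries left out, none of these genes was among the 5 nearest of its member, although r over the 10 libraries was 0.96 to 0.99 for the BRD2 genes, 0.84 to 0.93 for the MYC genes and 0.70 to 0.86 for the BRD3 genes.

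Known targets of MYC were a list of 40 genes of ribosome assembly, nucleotide and polyamine synthesis, glycolysis and related functions, of which 39 were tested. In sgHS1-5 against sgHS2, where MYC differed most, 28 were higher and 0 lower (20.4% and 18.5% of all tested genes), with a median log2 difference of 0.63. Against WT 27 were higher and 0 lower (background 23.4% and 19.5%; median 0.93), against sgHBG 17 and 0 (12.4% and 12.8%; median 0.39), and against sgGal4 13 and 2 (20.3% and 20.2%; median 0.26). The median over all tested genes lay between -0.02 and 0.05 in each of the 10 comparisons.

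NCL, an abundant nucleolar protein gene, rose in all 4 comparisons of sgHS1-5, by log2 1.22 ± 0.18 against WT (edgeR adjusted p = 0.000203), 0.93 against sgHS2, 0.81 against sgHBG and 0.53 against sgGal4. The last was not called without sgGal4 replicate 2 or 3 or sgHS1-5 replicate 2 (0.43, 0.43 and 0.38). LDHA, which makes lactate dehydrogenase A of glycolysis, rose in all 4 too, by 2.02 ± 0.11 against WT (edgeR adjusted p = 3.00e-08) and 0.78 against sgHS2. CAD, the enzyme that starts pyrimidine synthesis, rose against sgHS2 (0.81) and WT (0.93); without WT replicate 1 or 2 the adjusted p against WT was 0.0548 or 0.0520. ODC1, the first enzyme of polyamine synthesis, rose against sgHS2 (0.81 ± 0.17, edgeR adjusted p = 0.00245), and its difference from WT was -0.41 (edgeR adjusted p = 0.0927). NPM1, the most abundant of the list per length, fell by 0.67 against sgGal4 and differed by -0.11 from sgHS2 (edgeR adjusted p = 0.720). Its fall was -0.26 without sgGal4 replicate 1, still called, and was not called without sgHS1-5 replicate 1 or 3 (-0.65 and -0.62).

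The targets were also higher in sgGal4 than in WT, where MYC did not pass the test: 22 were higher and 5 lower (background 22.7% and 19.6%), with a median of 0.59, while the MYC difference was -0.23. TFRC, the transferrin receptor, rose by log2 1.09 ± 0.19 (edgeR adjusted p = 0.000514), NCL by 0.69 and FBL, the methyltransferase of ribosomal RNA, by 0.97, and ODC1 fell by 0.63. FBL stood at 0.38 without sgGal4 replicate 1, and lost its call without WT replicate 1 or 2 (0.94 and 0.98). NCL lost its call without WT replicate 2 (0.64), and ODC1 without WT replicate 1 or 2 or sgGal4 replicate 2 (-0.63, -0.65 and -0.51). Against sgGal4, 1 target was higher and 16 lower in sgHS2 (14.5% and 15.6%; median -0.42) and 1 higher and 7 lower in sgHBG (12.1% and 12.6%; median -0.20). In sgHS2 the 16 included FBL (-1.20), ODC1 (-0.58) and HSPD1, a mitochondrial chaperonin (-0.51), while LDHA rose by 1.21 ± 0.09. With sgGal4 replicate 1 left out the differences were -0.62 for FBL, -0.28 for ODC1 and -0.20 for HSPD1, the last no longer called (edgeR adjusted p = 0.0578). ODC1 lost its call without sgHS2 replicate 1 or 3 (-0.58 and -0.54), and HSPD1 without any 1 of the sgHS2 replicates (-0.54 to -0.49). Between sgHS2 and sgHBG, 1 was higher and 6 lower (3.76% and 5.15%). Against WT the counts were 9 higher and 5 lower in sgHS2 (17.6% and 15.5%) and 15 and 4 in sgHBG (17.7% and 15.9%).

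By library, the median log2 difference of the 39 targets from the WT mean was 0.96, 0.88 and 0.92 in sgHS1-5 replicates 1, 2 and 3. MYC itself differed from the WT mean by 0.56, 1.30 and 0.72 in these libraries. The target median was thus nearly the same in the 3 libraries while MYC was not. In sgGal4 the medians were 0.88, 0.47 and 0.38, with MYC at -0.60, -0.07 and -0.08. They were 0.13, 0.20 and 0.15 in sgHS2 and 0.35, 0.36 and 0.36 in sgHBG. sgGal4 replicate 1 thus combined the lowest MYC level with a target median near that of sgHS1-5, and it is the library with high short transcripts.

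The counts moved with the libraries that stand apart. Without sgGal4 replicate 1 and sgHS2 replicate 2, the sgHS1-5 counts were 25 higher and 3 lower against sgGal4 (25.7% and 27% of all genes tested in that fit), 30 and 2 against sgHBG (23.2% and 24.8%), 33 and 2 against sgHS2 (28.3% and 26.6%), and 31 and 4 against WT (32.6% and 29.8%). With sgHS1-5 replicates 2 and 3 left out they were 6 and 0 (8.46% and 8.76%), 7 and 0 (3.63% and 5.92%), 19 and 0 (9.16% and 9.46%), and 20 and 1 (14.3% and 12.4%) in the same order. The sgHS2 counts against sgGal4 were 3 higher and 25 lower without the first pair (19% and 23%), and those of sgGal4 against WT 25 and 6 (29.9% and 27.3%). Those of sgHBG against sgGal4 were 5 and 13 (17.8% and 19.6%). The share of all genes called rose or fell with the counts. For sgHS2 against WT, the 9 higher and 5 lower of the fit with all libraries became 12 and 12 without the first pair (26.5% and 25.9%). In the other comparisons listed here the direction with more calls stayed as with all libraries.

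**Figure D5:**
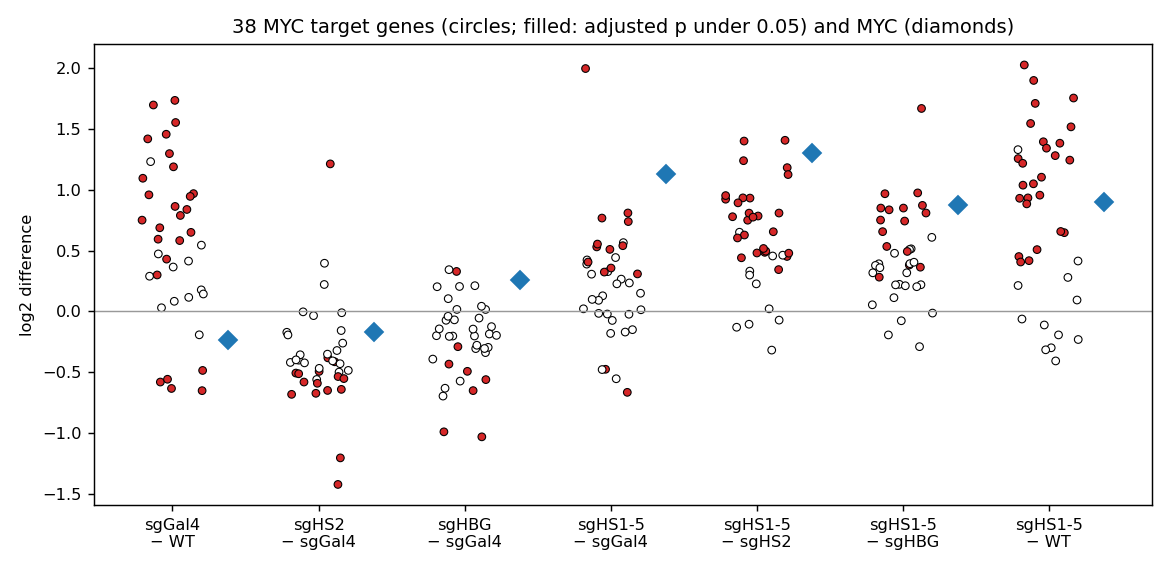
log2 differences of 38 MYC targets (circles; filled where the adjusted p is under 0.05) and of MYC (diamonds) in 7 comparisons; TERT, the 39th tested target, has differences beyond the other points and is not drawn. Targets lie mostly above 0 in the comparisons of sgHS1-5, where MYC is also high, and in sgGal4 against WT, where MYC is at -0.23.

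MYC and MAX bind the E-box CACGTG, which reads the same on both strands. It was searched for in the 250 bases before each gene's annotated start in RefSeq (GRCh38.p14), and a match is a description of letters, not of binding. It was held by 7.73% of all genes whose promoter was given, and of the MYC targets 9 of the 33 matched by symbol (27.3%). The 9 include HSPD1 and HSPE1, which lie on opposite strands and share the same E-box. The windows below belong to 3 targets named above and show where the E-box, in capitals, lies in each promoter. They are written 5′ to 3′ on the strand of the gene.
ODC1, chr2:10448013-10448068, minus strand: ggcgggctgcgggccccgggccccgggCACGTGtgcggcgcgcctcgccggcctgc
LDHA, chr11:18394351-18394410, plus strand: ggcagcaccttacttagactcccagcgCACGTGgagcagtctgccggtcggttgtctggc
LDHA, chr11:18394449-18394508, plus strand: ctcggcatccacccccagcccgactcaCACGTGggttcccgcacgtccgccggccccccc
HSPD1, chr2:197500330-197500389, minus strand: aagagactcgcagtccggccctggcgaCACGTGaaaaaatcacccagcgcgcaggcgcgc

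The genes shown are part of the 9 targets that held an E-box, and a relation of E-box number to direction was not tested. CDK4, which also held E-boxes, had 189 ± 5.44 CPM in sgHS1-5 and 236 ± 25.7 in sgHS2 against 264 ± 61.7 in sgGal4. LDHA rose against sgGal4 in sgHS2, in sgHS1-5 and, by log2 0.33, in sgHBG. The sgHBG call was lost without sgHBG replicate 1, 2 or 3. ODC1 and HSPD1 were lower in sgHS2 than in sgGal4. ODC1 was still called there without sgGal4 replicate 1 (-0.28), and HSPD1 was not (-0.20). The letters CACGTG were not in the windows of BRD2 or BRD3, and no MYC promoter was examined. In the other lists, 5 of 25 P-TEFb genes (20%), 4 of 19 MYC and MAX network genes (21.1%) and 3 of 30 other bromodomain genes (10%) held it.

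The network of MYC partners and antagonists, which share MAX as dimer partner, was tested for 20 of 22 genes. In sgHS1-5, 4 were higher and 4 lower than in sgGal4 (40% of the list, 40.4% of all tested genes), 3 and 6 against sgHBG (45% and 25.2%), 3 and 5 against sgHS2 (40% and 38.9%), and 2 and 5 against WT (35% and 42.9%). MAX itself fell in sgHS1-5 by log2 0.59 ± 0.11 against sgHBG, 0.53 against sgHS2 and 0.29 against sgGal4 (edgeR adjusted p = 0.00192, 0.00199 and 0.0482), and its difference from WT was -0.26 (edgeR adjusted p = 0.0984). The call against sgGal4 was lost without sgGal4 replicate 1 (-0.19) or sgHS1-5 replicate 1 or 3 (-0.21 and -0.28), and MAX was called against WT without sgHS1-5 replicate 2 (-0.34). MAX was at 39.0 to 49.3 CPM in sgHS1-5 and 61.99 to 68.7 in sgHS2 and sgHBG, so these groups did not overlap.

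The MAX-binding repressors MXD4 and MXI1 differed between the guides. MXD4 was at 73.2, 83.0 and 74.8 CPM in sgHS2, above every other library, and at 28.5 to 33.05 in sgHS1-5, below every other library. It rose in sgHS2 against sgGal4 by log2 0.85 ± 0.09 (edgeR adjusted p = 2.33e-05) and fell in sgHS1-5 against sgHS2 by 1.29 ± 0.09 (edgeR adjusted p = 1.08e-06). MXI1 rose against sgGal4 in sgHS2 (0.95 ± 0.18) and in sgHS1-5 (1.11 ± 0.18), with edgeR adjusted p = 0.00145 and 0.000450. Its sgHBG difference was 0.12. Against WT, however, MXI1 was called lower in sgGal4 (-0.79) and in sgHBG (-0.67). Its differences from WT of 0.16 in sgHS2 and 0.32 in sgHS1-5 were not called. The sgHBG call against WT was lost without WT replicate 1 or 2 or sgHBG replicate 3. Within sgHS1-5, MXI1 was at 27.9, 43.3 and 27.8 CPM in replicates 1, 2 and 3. MLX, the partner of the MondoA branch, fell against WT in all 4 dCas9 groups, by 0.63 in sgGal4, 0.72 in sgHS2, 0.55 in sgHBG and 0.77 in sgHS1-5. MYCN was too rare to be tested. In the comparisons without sgHS1-5, 5% to 40% of the network list was called, where 8.91% to 42.4% of all genes were.

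P-TEFb, the kinase that BET proteins recruit, its inhibitors and pausing factors made a list of 28 tested genes. Against sgGal4, 0 were higher and 4 lower in sgHS2, 1 and 6 in sgHBG, and 5 and 8 in sgHS1-5, or 14.3%, 25% and 46.4% of the list where 30.1%, 24.7% and 40.4% of all genes were called. In sgGal4 against WT 7 were higher and 4 lower (39.3% of the list, 42.4% of all genes). In the other 6 comparisons 3.57% to 28.6% of the list was called, in each a smaller share than over all genes.

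CDK9, the kinase of P-TEFb, had 52.2 and 57.5 CPM in WT and 67.0 to 102 in the dCas9 libraries, without overlap. It rose against WT by log2 0.76 ± 0.12 in sgGal4, 0.62 in sgHS2 and 0.56 in sgHBG (edgeR adjusted p = 0.000288, 0.00176 and 0.00319), and was 0.30 higher in sgHS1-5, short of the threshold (edgeR adjusted p = 0.0629). The sgHBG call was lost without WT replicate 1 (0.49, edgeR adjusted p = 0.0533). CCNT1, its cyclin, was called in none of the 10 comparisons by edgeR, with no unadjusted p under 0.05. It was called without sgGal4 replicate 1 in sgGal4 against WT (0.53) and, lower, in sgHS2 (-0.38) and sgHS1-5 (-0.25) against sgGal4. HEXIM1, an inhibitor of P-TEFb and a common readout of BET inhibition, was at 55.4, 58.6 and 56.9 CPM in sgHS1-5, above all other libraries. It rose there by 0.60 ± 0.11 against sgHBG, 0.47 against sgHS2 and 0.29 against sgGal4 (edgeR adjusted p = 0.00177, 0.00416 and 0.0422), while the difference of 0.25 from WT did not pass (edgeR adjusted p = 0.106). The call against sgGal4 was lost without any 1 of the compared libraries other than sgGal4 replicate 1, at values of 0.19 to 0.32. CDK7, a kinase of the initiation factor TFIIH, rose in sgGal4 against WT (0.77, or 0.51 without sgGal4 replicate 1) and fell in sgHS1-5 against sgGal4 (-1.03).

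Other bromodomain genes numbered 36, of which 35 were tested. In sgHS1-5, 12 were higher and 3 lower than in sgGal4 (42.9% of the list, 40.4% of all tested genes), 5 and 1 against sgHBG (17.1% and 25.2%), 6 and 1 against sgHS2 (20% and 38.9%), and 5 and 1 against WT (17.1% and 42.9%). In the other 6 comparisons 0% to 22.9% of the list was called, in each a smaller share than over all genes. SMARCA4, the ATPase of the BAF remodelling complex, rose in sgHS1-5 against sgGal4 (0.44) and sgHS2 (0.66), but its difference from WT of 0.13 was not called. Against WT, SMARCA4 was called lower in sgGal4 (-0.31), sgHBG (-0.45) and sgHS2 (-0.54). The sgGal4 call was kept in 1 of 5 fits with a single library left out. BRD7, a subunit of a related complex, fell against sgGal4 in sgHS2, sgHBG and sgHS1-5 (-0.43, -0.56 and -0.59). Its differences without sgGal4 replicate 1 were -0.23, -0.36 and -0.39, all called, and the sgHS2 call was lost without any 1 of the sgHS2 replicates (-0.46 to -0.42). From WT, BRD7 differed by -0.21 in sgHS2, -0.34 in sgHBG and -0.36 in sgHS1-5, none of them called. TRIM28, the most abundant of the list per length, was called in none of the 10 comparisons by edgeR and had 1 unadjusted p under 0.05. It was called in sgHS1-5 against sgGal4 without sgGal4 replicate 1 (0.33) and against sgHS2 without sgHS2 replicate 2 (0.40).

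The genes next to BRD2, BRD3 and MYC did not all move with them. PVT1, the non-coding neighbour of MYC, had 33.4 ± 1.82 CPM in WT, 60.8 ± 23.6 in sgGal4, 44.3 ± 5.74 in sgHS2, 46.9 ± 1.56 in sgHBG and 68.9 ± 12.7 in sgHS1-5. It rose in sgHS1-5 against WT (log2 1.04 ± 0.25, edgeR adjusted p = 0.00510) and against sgHS2 (0.64 ± 0.22, edgeR adjusted p = 0.0343), but also in sgGal4 against WT (0.86 ± 0.25, edgeR adjusted p = 0.0149), where the MYC difference was -0.23. The sgGal4 difference was 0.50 without sgGal4 replicate 1, still called, and lost its call without WT replicate 1 or 2 (0.91 and 0.80). That of sgHS1-5 against WT lost it without WT replicate 2 (0.98, edgeR adjusted p = 0.0522), and that against sgHS2 without replicate 1 or 3 of either group (0.51 to 0.63). Within sgHS1-5 its order was the opposite of MYC, at 81.0, 55.7 and 70.2 CPM in replicates 1, 2 and 3. WDR5, near BRD3, makes a shared subunit of histone methyltransferases. It rose in sgHS1-5 against sgGal4 (0.41), sgHBG (0.47) and sgHS2 (0.62), and its difference of 0.27 from WT did not pass (edgeR adjusted p = 0.0702). Near BRD2 in the class II region, the immunoproteasome gene PSMB9 rose against WT in all 4 dCas9 groups, by 3.13 in sgHS2, 2.44 in sgHBG and 2.57 in sgHS1-5, with sgGal4 the smallest. HLA-DMA, the direct neighbour of BRD2, had 3 to 43 reads per library against 1602 to 4214 for BRD2.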

How the data were processed

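Gene-level read counts and RPKM values were those the authors deposited, made from RNA-seq of 14 K562 libraries. TopHat, Cufflinks, DESeq and the hg19 build are named in the submitters' processing notes, and versions and settings are not given in the sources used here. Per the labels, the libraries were prepared with a TruSeq kit from total RNA. Libraries were grouped by their titles. From the deposited counts, genes were kept by filterByExpr (minimum count 10, minimum total 15; 14406 of 24729 genes), scaled by TMM and fitted with edgeR 4.0.16 in R 4.3.3 (quasi-likelihood F test, 1 mean per group, all libraries), with Benjamini-Hochberg adjustment within each of 10 comparisons. Means ± SD are of TMM-scaled CPM. SEs were derived from the F statistic. The deposited RPKM values, normalized by the authors per length and depth, were used for levels between genes and as an alternative test with limma 3.58.1 on log2(RPKM + 1). DESeq2 1.42.0, other filters and scalings, and leaving out libraries were further alternatives. The code was tested on simulated data. BRD2, BRD3, MYC and the gene lists were chosen with earlier results of these data known. Named genes were the 3 members, selected P-TEFb and MYC network genes, the 6 genes of each list with the highest mean RPKM, and the 5 genes with the highest Pearson r to each member. EIF4A1, among those 6 for the MYC targets, has 0 counts in every library beside an RPKM of 265 to 488 and was not tested. A withheld item is not reported here.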

Additional observations from a re-analysis of the deposited data

Results flagged for a closer look

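The MYC effect against sgGal4 was not the same for the guides. The sgHS1-5 effect exceeded the sgHBG effect by log2 0.88 and the sgHS2 effect by 1.30. The shared sgGal4 libraries cancel in these differences, which are the direct comparisons of the groups (edgeR adjusted p = 0.00367 and 0.000152).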

How the results depend on the processing

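No result for BRD2, BRD3 or MYC turned to a called difference of the opposite sign under any of the alternatives run; the BRD3 difference of sgHS2 from sgGal4, near 0, changed sign in 9 of 19 settings. BRD2 in sgHS1-5 against WT was 0.39 with no low-count filter (adjusted p = 0.0877). DESeq2 gave BRD3 in sgHS1-5 against sgHS2 as 0.30 (adjusted p = 0.0489). Most same-numbered replicates did not deviate together (26 pairs, r from -0.61 to 0.43, with 3 above 0.1). In all, 4 of 14 libraries correlated best with their own number. Deviations within a group depend on each other, and the libraries that stand apart weigh on r. These values therefore do not decide whether same-numbered libraries shared a batch. With the replicate number as a block, BRD2 against WT was 0.46 in sgHBG (adjusted p = 0.0513) and 0.40 in sgHS1-5 (0.0692).

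Without sgGal4 replicate 1 and sgHS2 replicate 2, new calls were BRD2 in sgGal4 against WT (0.45); BRD3 in sgHS2 against sgGal4 (-0.23) and WT (-0.27) and in sgHS1-5 against sgHBG (0.21) and sgHS2 (0.36); and MYC in sgHS2 against sgHBG (-0.48) and WT (-0.47). Without sgHS1-5 replicates 2 and 3, calls were lost for MYC in sgHS1-5 against sgHBG (0.54) and WT (0.56) and for BRD2 against WT (0.49). Without all 4, new calls were BRD2 in sgHS2 against sgGal4 (0.10) and sgGal4 against WT (0.45); BRD3 in sgHS2 against sgGal4 (-0.21) and WT (-0.25) and in sgHS1-5 against sgHS2 (0.31); and MYC in sgHS2 against sgGal4 (-0.37), sgHBG (-0.47) and WT (-0.45) and in sgHBG against sgGal4 (0.10). With only the compared groups in the fit, new calls were MYC in sgHS2 against sgHBG (-0.44) and WT (-0.41) and BRD3 in sgHS1-5 against sgHBG (0.24) and sgHS2 (0.30). BRD2 in sgGal4 against WT was called on RPKM, at 0.29 with a pseudocount of 1, with or without a filter, and 0.29 with 0.1. Among the other named genes, each tested with single libraries left out (chosen after seeing the data), HSPD1 in sgHS1-5 against sgGal4 (-0.02, not called) ranged from -0.16 to 0.29, the last called, without sgGal4 replicate 1. The causes were not tested.

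Leaving out 1 library at a time gave BRD2 against WT 0.51 to 0.55 in sgHS2, 0.48 to 0.50 in sgHBG, 0.40 to 0.48 in sgHS1-5 and 0.18 to 0.45 in sgGal4; BRD3 in sgHS1-5 against sgGal4 0.15 to 0.36, called without sgGal4 replicate 3 (adjusted p = 0.0453). MYC in sgHS1-5 ranged over 0.88 to 1.27 against sgGal4, 0.63 to 1.02 against sgHBG, 1.05 to 1.44 against sgHS2 and 0.65 to 1.04 against WT.

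Over all settings the count of genes called ran from 2306 to 8424 (4332 as reported) for sgHS2 and 2064 to 7959 (3556) for sgHBG against sgGal4, and 2203 to 7584 (5823) for sgHS1-5. Against WT it ran from 3502 to 10069 (6103) in sgGal4, 2794 to 9540 (4769) in sgHS2, 2898 to 9906 (4844) in sgHBG and 3833 to 8967 (6182) in sgHS1-5. Between guides it ran from 548 to 6273 (1284) for sgHS2 against sgHBG, 1372 to 6900 (3628) for sgHS1-5 against sgHBG and 2675 to 7907 (5608) against sgHS2.

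Of the 5 nearest genes, BRD2 kept 1 with Spearman's rho, 1 on log2(RPKM + 1) and 0 without the 4 libraries; BRD3 kept 2, 0 and 0; MYC kept 1, 4 and 0.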
